A study of Arabidopsis thaliana with 36 samples.

Results

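Transcript levels were compared in wrky18 seedlings of Arabidopsis thaliana before and 1 h after contact with flg22, a peptide of bacterial flagellin. The comparison rests on 3 libraries labelled wrky18 at 1 h and 3 libraries labelled wrky18 at 0 h, picked by genotype and time point, out of 36 libraries in all. Both groups carry the wrky18 mutation in the Col-0 background, the common laboratory accession, and both came from 12-day-old seedlings grown in MS medium with sucrose and the antibiotic claforan under long days. The 1 h seedlings had their medium exchanged for medium with 1 µM flg22, and the 0 h seedlings were left untreated with no exchange of medium. The effects of flg22, of the new medium and of the time of day therefore cannot be told apart. The other groups used here are Col-0 WT, the wrky40 single mutant and the wrky18 wrky40 double mutant at the same times, with 3 libraries each. The labels give each mutant by gene only, so the kind of allele and the number of lines behind it were not used here. They speak of 3 biological replicates, and each sample was 100 mg of seedlings.

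In Arabidopsis, flg22 is bound by the receptor kinase FLS2, which pairs with the co-receptor BAK1 and sets off an oxidative burst, calcium influx and MAP kinase activity. These lead within minutes to large changes in transcription, known as pattern-triggered immunity. WRKY transcription factors bind the W box, a short DNA element in the promoters of many defence genes. WRKY18, WRKY40 and WRKY60 form 1 small subgroup of the family, can bind each other, and are known mostly as modulators of defence and abscisic acid responses.

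Total counts ran from 20828914 to 32720687 in the 6 wrky18 libraries. Levels are CPM, the counts of a gene scaled to the depth of its library, changes are log2 fold changes ± SE from an edgeR quasi-likelihood fit, and a gene was called at a Benjamini-Hochberg adjusted p below 0.05 over 21356 genes. The number of libraries was 3 in every group. The share of counts from the mitochondrial genome was 0.0131% to 0.0193% in 11 of the 12 libraries numbered 3, and 0.0444% to 0.155% in the 24 libraries numbered 1 or 2. The library labelled WT at 1 h, replicate 3, held 0.134% and so stood with the other 2 sets. It enters the WT changes, the spread estimated over all libraries and the difference from WT, in which no gene was called with it or without it. Root and shoot identity was checked on markers. All 11 root markers and all 8 shoot and leaf markers passed the filter on low counts, among them PYK10, an abundant root and hypocotyl beta-glucosidase, at 1910 CPM and RBCS1A, a small subunit of Rubisco, at 15400 CPM in untreated wrky18. Of 8 flower and seed markers, 1 was tested.

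The mutated gene was examined first. WRKY18 (AT4G31800, chr4:15382777-15385100, TAIR10.1) gave 12.4, 8.35 and 9.98 CPM at 0 h and 26, 31.8 and 26.6 CPM at 1 h in wrky18. All 3 libraries at 1 h lay above all 3 at 0 h, and the change was 1.46 ± 0.15 (adjusted p = 6.17e-10). In WT the same locus gave 25.4, 18.8 and 28 CPM at 0 h and 135, 114 and 126 CPM at 1 h, so every wrky18 library was below every WT library of its time. Counts over the whole gene remained in the mutant, and such counts do not show which part of the transcript is left. The gene directly downstream on the same strand, AT4G31805, had 1 count over the 3 untreated wrky18 libraries and 0 counts at 1 h. Its annotated product is a WRKY family transcription factor, but it is not among the 71 loci found under the WRKY symbol. Its mean was 5.93 CPM in untreated WT, 5.98 CPM in untreated wrky40 and 0 CPM in the untreated double mutant. The next gene, AT4G31810, had a change of -0.02 ± 0.08 in wrky18 and was not called.

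The closest relatives of WRKY18 went in opposite directions. WRKY40 (AT1G80840) gave 7.81, 7.43 and 10.7 CPM at 0 h and 270, 323 and 252 CPM at 1 h, with no overlap between the groups, a change of 5.02 ± 0.26. WRKY60 (AT2G25000) gave 37.5, 25 and 23 CPM at 0 h and 11.4, 11.3 and 10.2 CPM at 1 h. Here the 1 h libraries lay below all untreated ones, and the change was -1.38 ± 0.24. In WT the changes were 5.30 ± 0.27 for WRKY40 and -1.97 ± 0.26 for WRKY60.

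After 1 h, 12880 genes were called in wrky18, or 60.3% of those tested, of which 6045 (28.3%) rose and 6835 (32.0%) fell. Changes of at least 2-fold were more often rises, with 3188 genes (14.9%) higher and 2121 (9.93%) lower. At a log2 change of 4 or more in size, 658 called genes were higher and 40 were lower, and at 8 or more 56 were higher and 0 were lower. The 3 libraries of each time did not overlap for 6065 genes (28.4%) that were higher and 6938 (32.5%) that were lower at 1 h. The genes that rose at least 2-fold held 5.16% to 5.55% of all counts in the untreated libraries and 27.7% to 29.4% in the 1 h libraries. Those that fell at least 2-fold went from 6.23% to 6.46% of counts at 0 h to 1.91% to 1.92% at 1 h. Their median levels moved from 3.72 to 23.2 CPM in the first set and from 8.23 to 2.7 CPM in the second. The 2 sets were picked on these changes, so the shares only describe them. In whole seedlings, fewer cells of a type and less RNA per cell cannot be told apart.

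**Figure D1:**
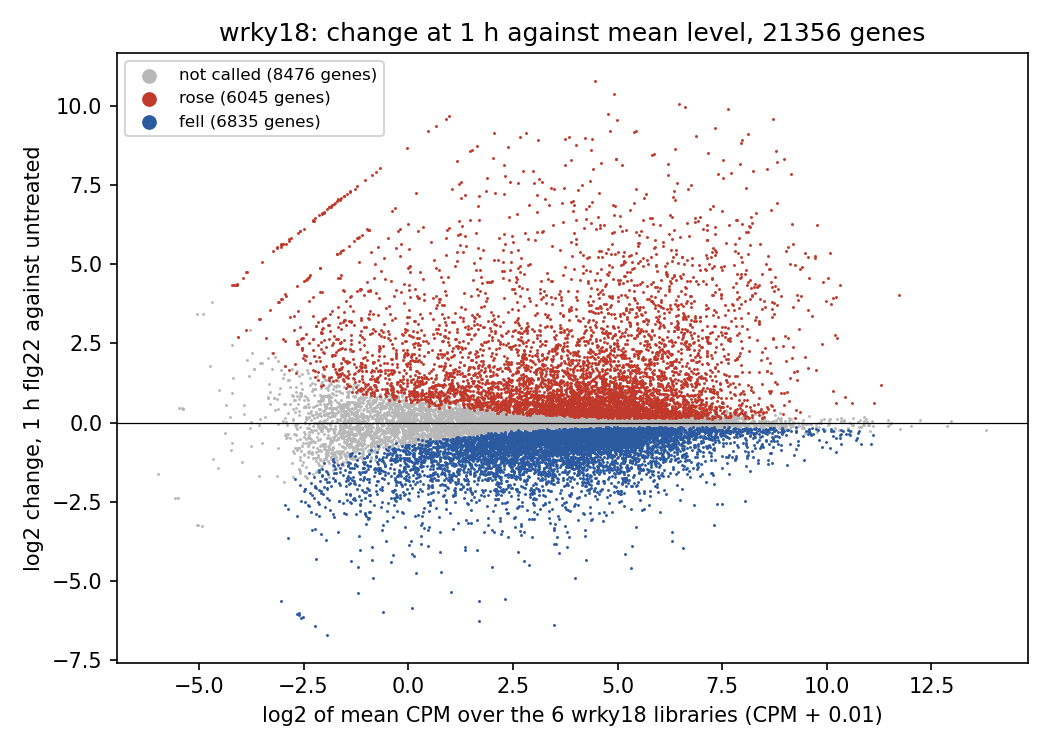
Each point is 1 of the 21356 genes tested in wrky18, with the log2 of its mean CPM over the 6 libraries on the x axis (0.01 CPM added) and its log2 change at 1 h against untreated on the y axis. Red points are the 6045 genes that rose, blue the 6835 that fell and grey those not called. The red points reach further from 0 than the blue points.

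The split of calls depended on the scaling. The median log2 change over all genes tested was -0.05 with TMM scaling, -0.01 with RLE scaling or DESeq2, and -0.25 with upper-quartile scaling. Of the called genes 46.9% were higher with TMM, 50.4% with RLE, 50.9% with DESeq2 and 32.3% with upper-quartile scaling, where 4719 rose and 9909 fell. Small changes are therefore to be read against these medians.

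Of genes averaging 1 log2 CPM or more, those with the largest rises were nearly silent in untreated wrky18 seedlings. AT4G04480, annotated as an F-box protein, gave 0, 0.0295 and 0.0264 CPM at 0 h and 40.9, 43.7 and 47 CPM at 1 h. It had 2 counts over the untreated libraries and 2864 at 1 h, a ratio of 2197 per unit of depth with a 95% exact interval of 607.5 to 18150, which covers counting error only. It overlaps PMP22 on the other strand by 837 bp, and the counting strand was not stated. AT5G56960, a bHLH DNA-binding protein, gave 0.0358, 0 and 0.0792 CPM at 0 h and 57.8, 57.8 and 64.2 CPM at 1 h, a change of 10.38 ± 0.19. AT3G12910, a NAC domain regulator, gave 0.251, 0.0885 and 0.158 CPM at 0 h and 155, 197 and 181 CPM at 1 h, a change of 10.07 ± 0.27. AT1G22810, annotated as an integrase-type DNA-binding protein, gave 0.107, 0.236 and 0.211 CPM at 0 h and 192, 228 and 169 CPM at 1 h, a change of 9.97 ± 0.29. CYP82C3, a cytochrome P450 of the CYP82C group, gave 0.394, 0.265 and 0.555 CPM at 0 h and 400, 385 and 405 CPM at 1 h, a change of 9.90 ± 0.27. Only genes with every 1 h library above every untreated one could be picked here, so that separation is no result of its own. By their annotation 3 of the 5 encode DNA-binding proteins.

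The promoters of these 5 genes are shown because they had the largest rises, beside those of the 2 genes with the largest falls. Each is the 250 bases before the gene start in RefSeq's TAIR10.1, 5′ to 3′ on the gene's strand, with the W boxes TTGACC and TTGACT and their reverse complements GGTCAA and AGTCAA in capitals.

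AT4G04480, chr4:2229399-2229648, plus strand: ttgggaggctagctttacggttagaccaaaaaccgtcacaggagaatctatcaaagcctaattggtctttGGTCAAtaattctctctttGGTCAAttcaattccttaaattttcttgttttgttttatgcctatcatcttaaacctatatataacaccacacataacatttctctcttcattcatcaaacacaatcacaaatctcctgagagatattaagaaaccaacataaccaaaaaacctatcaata
AT5G56960, chr5:23041618-23041867, minus strand: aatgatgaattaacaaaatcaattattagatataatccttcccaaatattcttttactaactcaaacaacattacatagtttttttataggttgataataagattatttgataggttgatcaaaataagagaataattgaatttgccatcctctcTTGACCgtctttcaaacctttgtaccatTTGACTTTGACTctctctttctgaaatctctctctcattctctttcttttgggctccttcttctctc
AT3G12910, chr3:4109125-4109374, plus strand: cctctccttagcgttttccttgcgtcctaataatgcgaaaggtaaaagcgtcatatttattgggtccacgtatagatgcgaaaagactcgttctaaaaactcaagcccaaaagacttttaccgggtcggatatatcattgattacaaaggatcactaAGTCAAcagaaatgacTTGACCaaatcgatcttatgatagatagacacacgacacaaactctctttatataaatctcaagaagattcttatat
AT1G22810, chr1:8075038-8075287, minus strand: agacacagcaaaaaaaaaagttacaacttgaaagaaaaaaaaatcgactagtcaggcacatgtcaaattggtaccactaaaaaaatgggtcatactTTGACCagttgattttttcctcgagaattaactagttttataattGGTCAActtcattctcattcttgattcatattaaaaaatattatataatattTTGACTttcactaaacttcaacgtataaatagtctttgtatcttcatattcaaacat
CYP82C3, chr4:15454833-15455082, plus strand: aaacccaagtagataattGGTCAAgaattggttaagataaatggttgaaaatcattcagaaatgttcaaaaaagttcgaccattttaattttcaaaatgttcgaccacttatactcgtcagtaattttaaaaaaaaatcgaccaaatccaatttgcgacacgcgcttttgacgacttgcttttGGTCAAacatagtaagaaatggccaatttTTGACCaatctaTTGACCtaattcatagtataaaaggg
AT4G38860, chr4:18129987-18130236, plus strand: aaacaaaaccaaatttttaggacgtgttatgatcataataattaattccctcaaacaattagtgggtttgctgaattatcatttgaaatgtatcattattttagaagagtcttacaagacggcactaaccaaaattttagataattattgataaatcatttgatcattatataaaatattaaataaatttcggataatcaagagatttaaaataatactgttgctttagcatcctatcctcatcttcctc
AT3G09450, chr3:2907229-2907478, plus strand: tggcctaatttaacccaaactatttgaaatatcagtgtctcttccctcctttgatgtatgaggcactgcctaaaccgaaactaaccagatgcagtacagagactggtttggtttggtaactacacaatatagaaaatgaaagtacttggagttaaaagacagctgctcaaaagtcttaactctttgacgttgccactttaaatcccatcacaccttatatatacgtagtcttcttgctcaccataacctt

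The promoters of the 5 genes that rose held 2 to 4 W boxes each, and those of the 2 genes that fell held 0. In AT5G56960, the pair TTGACT and TTGACT stood back to back, with first bases 67 and 61 bases before the gene start. In CYP82C3, 3 of the 4 W boxes lay within 67 bases of the gene start. No match in such a window says only that these letters are not in it.

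Over the 21219 tested nuclear genes with a promoter of this length, 28.8% held a W box of either form on either strand. The share was 45.7% of the 3185 genes that rose at least 2-fold and 57.4% of the 658 that rose by at least 4 on the log2 scale. It was 20.6% of the 2120 that fell at least 2-fold and 25.8% of the 8347 genes not called. By form, TTGACC was present in 20.2% of the genes that rose at least 2-fold and in 12.5% of all genes tested, and TTGACT in 32.6% and 19.2%. CGCGTT, the core of the rapid stress response element, was found in 5.84% of the genes that rose at least 2-fold, 1.84% of those that fell and 2.85% of all tested. The GCC box GCCGCC, bound by ERF factors, had shares of 2.70%, 1.13% and 1.98% in the same order, and the G box CACGTG, bound by bHLH and bZIP factors, had 6.31%, 7.59% and 7.19%. These shares are descriptions of a sequence match, with no test.

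Behind these 5, the next largest rises were AT4G22030 (9.73 ± 0.30), PER4 (9.58 ± 0.34), AT2G31345 (9.55 ± 0.30), PP2-B8 and AT3G02840 (9.31 ± 0.20). PER4, a class III peroxidase, gave 0.645, 1 and 1.53 CPM at 0 h and 813, 890 and 811 CPM at 1 h. PP2-B8, a phloem protein of the PP2-B group, had 0 counts in the 3 untreated libraries and 204 at 1 h, and so was at least 104.3-fold higher, taking 3 counts in the untreated group as the floor. AT2G31345 overlaps emb1381 on the other strand by 569 bp. By adjusted p the leading rises were in 4 kinase genes and the ubiquitin ligase gene PUB24. LECRKA4.1, a lectin receptor kinase, gave 5.52, 5.25 and 5.73 CPM at 0 h and 492, 432 and 450 CPM at 1 h, a change of 6.38 ± 0.10 (adjusted p = 9.77e-30), and overlaps AT5G01542 on the other strand by 2456 bp. PUB24 changed by 6.28 ± 0.10, AT1G61360, an S-locus lectin kinase, by 4.96 ± 0.08, CRK14, a cysteine-rich receptor-like kinase, by 6.22 ± 0.11, and the kinase AT3G09830 by 4.95 ± 0.09. Replicates of these 5 genes were close, as in AT1G61360 with 13.9, 12.8 and 14.2 CPM at 0 h and 398, 439 and 439 CPM at 1 h. A choice by p favours genes with close replicates.

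The largest falls were in SAUR genes, small auxin-responsive growth genes, and in genes of other kinds. AT4G38860, a SAUR gene, gave 30.1, 19.6 and 17 CPM at 0 h and 0.288, 0.153 and 0.325 CPM at 1 h, a change of -6.38 ± 0.42 (adjusted p = 9.91e-15). AT3G09450, annotated in the fusaric acid resistance family, gave 7.31, 9 and 2.75 CPM at 0 h and 0.144, 0.0512 and 0.0407 CPM at 1 h, a change of -6.27 ± 0.63. Its untreated libraries were more spread than those of AT4G38860. That all of them lay above those at 1 h was a condition for being picked. Of the 10 largest falls 4 were SAUR genes, the other 3 being AT4G38840 (-4.89 ± 0.30), AT4G34770 (-4.54 ± 0.35) and AT2G21210 (-4.35 ± 0.32). The remaining ones were AT5G35777 (-5.62 ± 0.43), MIR167d (-5.56 ± 0.43), the CONSTANS-like gene COL2 (-4.60 ± 0.18), AT5G20790 (-4.51 ± 0.39) and the pectin lyase-like gene AT1G60590 (-4.37 ± 0.25). The MIR167d value is of the polyadenylated precursor locus, not of the mature miRNA. By adjusted p, RPT2, which acts in phototropism, led the falls with 460, 456 and 435 CPM at 0 h and 82, 87.6 and 76.2 CPM at 1 h and a change of -2.46 ± 0.08. AT2G41250 (-2.61 ± 0.09), the B-box factor BBX15 (-4.13 ± 0.15), the vacuolar nitrate transporter CLC-A (-1.67 ± 0.06) and COL2 followed. COL2 overlaps AT3G02370 on the other strand by 771 bp, and AT3G02390 as well.

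**Figure D2:**
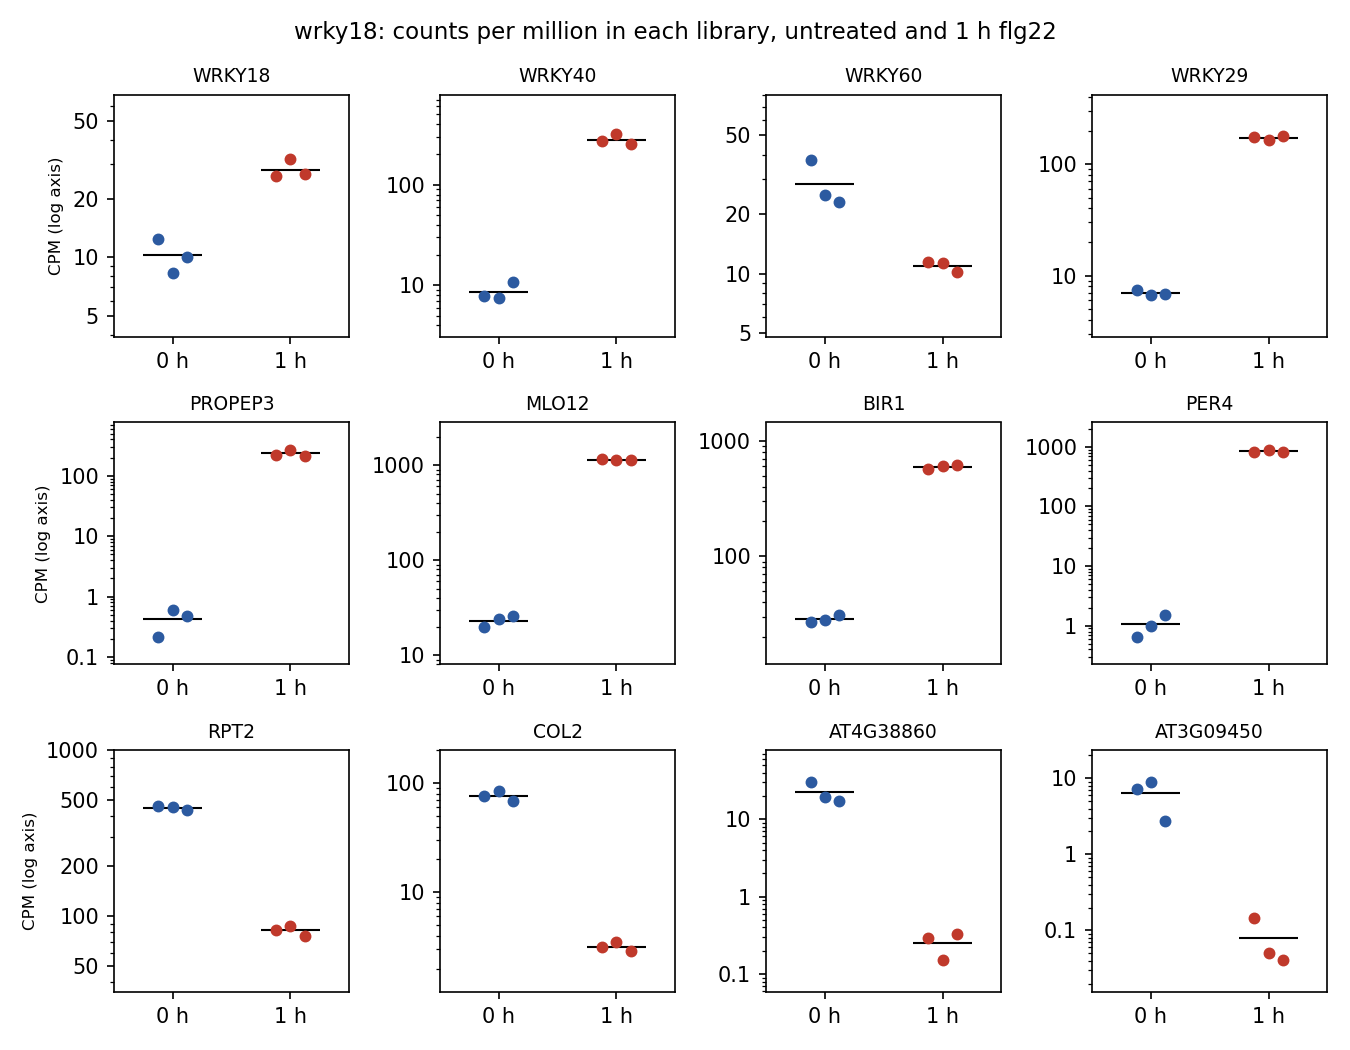
CPM in each of the 3 untreated (0 h, blue) and the 3 flg22-treated (1 h, red) wrky18 libraries, on a log axis, for 12 genes, with a line at the mean of each group. In all 12 panels the groups do not overlap: WRKY18, WRKY40, WRKY29, PROPEP3, MLO12, BIR1 and PER4 are higher at 1 h, and WRKY60, RPT2, COL2, AT4G38860 and AT3G09450 are lower. For PER4, COL2, AT4G38860 and AT3G09450 the lack of overlap was a condition for being picked as a largest change.

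Groups of genes are described by how many of their tested members rose or fell, to be read against the 28.3% that rose and the 32.0% that fell over all genes, and against the median of -0.05. All 22 of the flg22 marker genes rose, with a median of 4.72. PROPEP3, the precursor of a peptide that amplifies immune signals, gave 0.215, 0.59 and 0.475 CPM at 0 h and 221, 267 and 214 CPM at 1 h, a change of 9.04 ± 0.21. MLO12, a membrane protein of the MLO family linked to powdery mildew susceptibility, gave 19.6, 23.9 and 25.8 CPM at 0 h and 1150, 1140 and 1140 CPM at 1 h, a change of 5.63 ± 0.13. WRKY29 gave 7.49, 6.64 and 6.87 CPM at 0 h and 176, 165 and 177 CPM at 1 h (4.63 ± 0.10) and CBP60G, a calmodulin-binding activator of salicylic acid synthesis, gave 2.19, 2.83 and 2.61 CPM at 0 h and 134, 131 and 136 CPM at 1 h (5.71 ± 0.15). These genes are listed because they are known to respond to flg22, so their direction here is not independent evidence of it.

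Of 20 pattern receptors and co-receptors, 18 rose and 1 fell (median 2.73). BIR1, a kinase that binds BAK1 and restrains cell death, gave 27.1, 28.3 and 30.8 CPM at 0 h and 573, 602 and 615 CPM at 1 h, a change of 4.38 ± 0.08. LYK4 (4.93 ± 0.11) and CERK1 (3.61 ± 0.08) of the chitin receptor rose, as did the co-receptor SERK4, which gave 12.3, 13.1 and 12.9 CPM at 0 h and 192, 197 and 225 CPM at 1 h. AT1G27190, a leucine-rich repeat kinase, was the member that fell (-0.76 ± 0.10). FLS2, the flg22 receptor itself, was added after its values were seen and gave 32.7, 33.5 and 31.6 CPM at 0 h and 173, 174 and 169 CPM at 1 h, a change of 2.40 ± 0.08. Larger receptor families moved the same way in most members. Of 42 genes found under the CRK symbol of cysteine-rich receptor-like kinases 32 rose and 5 fell, of 40 lectin receptor kinases 23 and 4, and of 47 receptor-like proteins 28 and 8. Among the CRK genes, AT2G41140, which fell (-0.83 ± 0.08), and AT2G46700, which was not called, are annotated as CDPK-related kinases and share only the symbol. CRK31 (8.32 ± 0.19), AT5G65600 (8.45 ± 0.22) and RLP7 (8.19 ± 0.17) had the largest rises among the members named in them. CRK30 (-1.65 ± 0.13), AT3G53380 (-1.64 ± 0.12) and RLP29 (-1.65 ± 0.34) fell. Of 14 intracellular immune receptors and their partners, 11 rose and 0 fell, led by ZAR1 (3.76 ± 0.10), with RPM1 at 2.73 ± 0.10 and its guarded partner RIN4 at 1.81 ± 0.08.

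Signalling genes downstream of the receptors rose in most cases. Among 25 genes of the oxidative burst, calcium and MAP kinase signalling, 22 rose and 3 fell (median 1.49). The MAP kinase MPK3 gave 51.5, 49.1 and 59.6 CPM at 0 h and 621, 716 and 590 CPM at 1 h, a change of 3.59 ± 0.11. MPK11, a MAP kinase nearly silent before treatment, changed by 7.48 ± 0.22, and CPK28, a calcium-dependent kinase that limits levels of the receptor-associated kinase BIK1, by 4.50 ± 0.12. The 3 that fell were the cyclic nucleotide-gated channels DND1 (-1.44 ± 0.12) and CNGC4 (-1.47 ± 0.15) and the MAP kinase kinase MKK9 (-0.59 ± 0.18). Over the calcium-dependent kinase family, 20 of 28 rose and 2 fell, and among calmodulin-like proteins 9 of 14 rose and 2 fell. The falls were 1 of the first family with RLE scaling, DESeq2 and 6 other settings, and 0 of the second with only the groups compared or without replicate 3 at 1 h. CML37 changed by 6.55 ± 0.31 and CML42 by 6.28 ± 0.12. Of the 7 ubiquitin ligases listed for their part in immune signalling, 5 rose and 2 fell. PUB22 (4.85 ± 0.13), PUB23 (4.69 ± 0.17), PUB24 and PUB12 (3.88 ± 0.12) rose strongly, and PUB13 rose by 0.26 ± 0.06. PUB25 (-1.26 ± 0.19) and PUB26 (-0.78 ± 0.20) fell. PUB13 was not called with upper-quartile scaling. In the wider U-box family 13 of 22 rose and 3 fell.

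Transcription factor families were also shifted. Of 63 WRKY genes tested, 45 rose and 7 fell, with a median of 1.77 (11 fell with upper-quartile scaling). WRKY30 gave 0.645, 1.03 and 1.35 CPM at 0 h and 474, 532 and 488 CPM at 1 h, a change of 8.91 ± 0.21, and WRKY41 changed by 9.02 ± 0.29 from 5 counts over the untreated libraries, with a 517 bp overlap with 3xHMG-box1 on the other strand. WRKY11 changed by 4.99 ± 0.17. WRKY49 (-2.75 ± 0.31), WRKY60, WRKY3 (-0.84 ± 0.07) and WRKY57 (-0.54 ± 0.08) were among those that fell. Of the 6 genes under the ZAT symbol 5 rose, ZAT11 by 7.36 ± 0.22 and STZ, a salt tolerance zinc finger, by 4.26 ± 0.23. The one not called, ZAT (AT2G46800), is annotated as a zinc transporter and shares only the symbol. Among 15 ERF factors, mostly of groups IX and X but with ERF4 and ERF11 of another group, 11 rose and 2 fell. ABR1 (5.57 ± 0.21) and ERF15 (3.66 ± 0.16) were among those that rose, and ORA59 (-1.67 ± 0.22) and RAP2.6 (-0.82 ± 0.28) fell. RAP2.6 was not called with only the groups compared (adjusted p = 0.0533, edgeR) or without replicate 1 at 0 h, replicate 1 at 1 h or replicate 3 at 1 h (adjusted p up to 0.19).

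**Figure D3:**
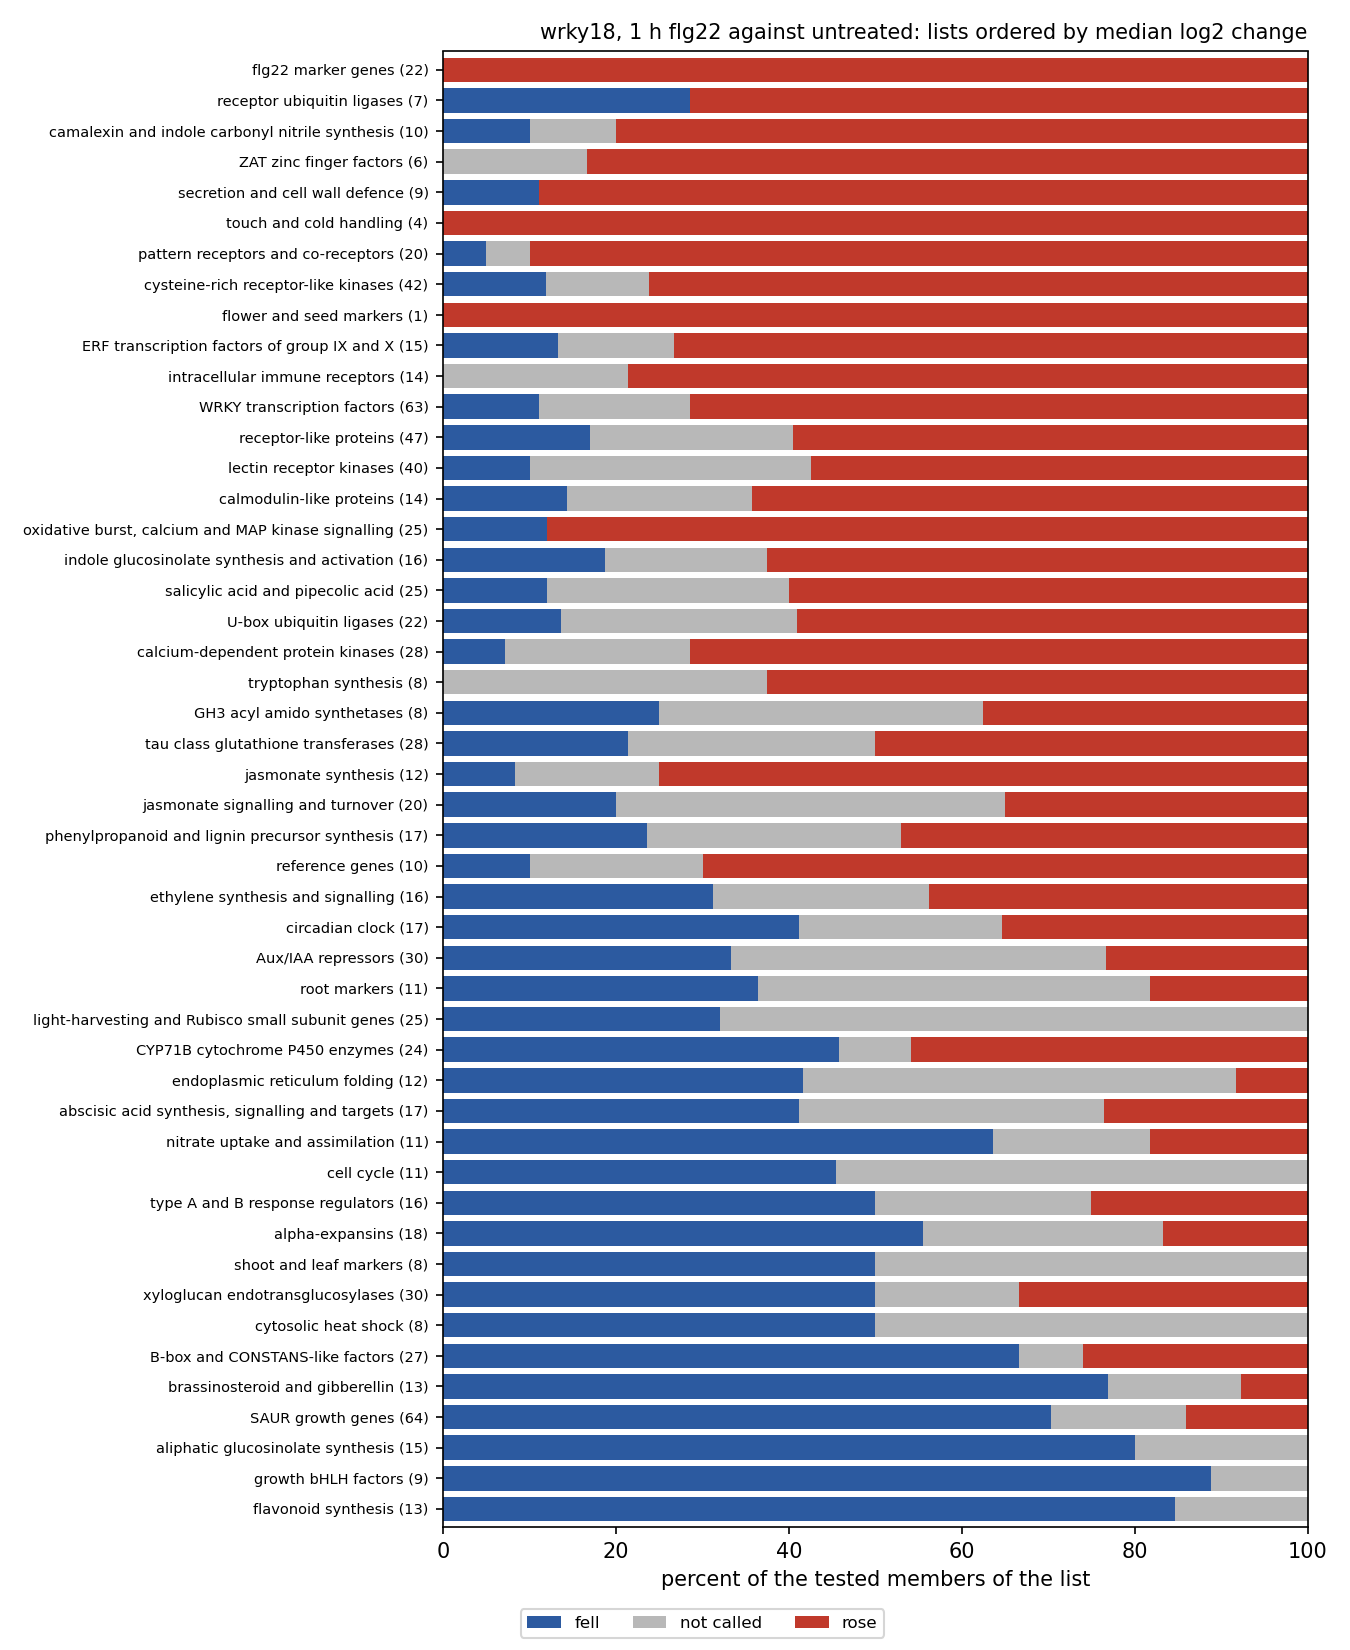
Each bar is 1 gene list, with the number of tested members in brackets, and shows the percent of them that fell (blue), were not called (grey) or rose (red) in wrky18 at 1 h. Lists run from the lowest median log2 change at the bottom, flavonoid synthesis, to the highest at the top, flg22 marker genes, whose 22 members all rose.

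Hormone pathways had members that moved in both directions. Of 25 genes of salicylic and pipecolic acid, 15 rose and 3 fell. EDS1 and SAG101, which relay signals of intracellular receptors, changed by 2.71 ± 0.09 and 3.08 ± 0.10, and NPR1, a salicylic acid receptor, by 2.61 ± 0.11. The fallers were EPS1 (-1.53 ± 0.21), which acts in salicylic acid synthesis, and the bZIP factors AHBP-1B (-0.70 ± 0.11) and TGA1 (-0.31 ± 0.09). TGA1 was not called without replicate 2 at 1 h (-0.22, edgeR adjusted p = 0.0717). In jasmonate synthesis, 9 of 12 rose and 1 fell. LOX4, a lipoxygenase of the first step, gave 2.79, 2.54 and 3.51 CPM at 0 h and 744, 746 and 772 CPM at 1 h, a change of 7.99 ± 0.19. LOX3 (5.82 ± 0.21), AOC3 (3.12 ± 0.15), OPCL1 (2.82 ± 0.11) and OPR3 (1.39 ± 0.14) rose as well, and AOC4 (-0.53 ± 0.09) fell. LOX2, which had the highest untreated level of the lipoxygenase genes of the list, gave 430, 380 and 379 CPM at 0 h and 345, 267 and 357 CPM at 1 h and was not called. In jasmonate signalling and turnover 7 of 20 rose and 4 fell. The repressor genes JAZ5 (3.32 ± 0.22) and JAZ1 (3.03 ± 0.14) rose, and the receptor gene COI1 (-0.97 ± 0.11) and the factor MYC4 (-1.03 ± 0.13) fell. In ethylene synthesis and signalling, 7 of 16 rose and 5 fell. All 4 synthase genes of the rate-limiting step in the list rose, ACS2 by 4.23 ± 0.20, ACS7 by 3.83 ± 0.24, ACS6 by 3.46 ± 0.20 and ACS8 by 2.53 ± 0.29, while the receptor genes ETR2 (-1.11 ± 0.12) and ERS2 (-1.07 ± 0.11) and the signal transducer EIN2 (-0.92 ± 0.09) fell.

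Among 17 abscisic acid genes, 4 rose and 7 fell. ABI5, a bZIP factor of seed and seedling responses, changed by 2.90 ± 0.13, and the phosphatase genes HAI1 and ABI2 by 1.64 ± 0.21 and -1.58 ± 0.18. Of 13 brassinosteroid and gibberellin genes, 10 fell and 1 rose. The brassinosteroid synthesis gene BR6OX2 fell, with 35.3, 27.9 and 22.7 CPM at 0 h and 4.61, 3.99 and 5.49 CPM at 1 h. The DELLA repressor gene GAI fell by 2.14 and the brassinosteroid factor BES1 by 1.47 on the log2 scale, and DWF4, another synthesis gene, rose (0.58 ± 0.12). BES1 overlaps RRA3 on the other strand by 818 bp. For auxin, the genes found under the IAA symbol of Aux/IAA repressors had 7 rises and 10 falls among 30, with IAA10 (2.76 ± 0.14) and IAA19 (2.67 ± 0.16) up and ATAUX2-11 (-1.57 ± 0.14) down. NPH4, ARF19 and MP of the same list, none of them called, are auxin response factors and not repressors of this family. GH3 acyl amido synthetases had 3 rises and 2 falls among 8, led by BRU6 (3.46 ± 0.16). Response regulators of cytokinin signalling had 4 rises and 8 falls among 16, with 2 rises under upper-quartile scaling. ARR7 changed by 1.72 ± 0.20 and RR14 by -1.59 ± 0.19.

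Genes that make defence compounds from tryptophan rose in most cases. In camalexin and indole carbonyl nitrile synthesis 8 of 10 rose (median 3.55). AT1G26380, a FAD-binding oxidase, gave 2.4, 3.6 and 3.43 CPM at 0 h and 1000, 1050 and 979 CPM at 1 h, a change of 8.31 ± 0.28, and CYP71A12 changed by 4.71 ± 0.34 and PAD3, the last enzyme of camalexin synthesis, by 2.40 ± 0.24. CYP82C4, which the list holds beside CYP82C2 and CYP82C3, need not act on a product of tryptophan itself. It had 0 counts in the untreated libraries and 49 at 1 h, at least 25.05-fold more over the group floor of 3 counts. CYP79B3, which makes the common precursor indole-3-acetaldoxime, fell (-0.40 ± 0.12), whereas its partner CYP79B2 rose (0.88 ± 0.15). In indole glucosinolate synthesis and activation 10 of 16 rose and 3 fell. IGMT2, which methylates indole glucosinolates, gave 1.97, 3.01 and 3.83 CPM at 0 h and 823, 998 and 853 CPM at 1 h (8.22 ± 0.25). Reads of IGMT2 and its close paralog IGMT1 (4.38 ± 0.14) may be shared. PEN2, the atypical myrosinase (3.82 ± 0.09), and PEN3, the transporter for its products (4.03 ± 0.12), rose, PEN3 to a mean of 6420 CPM. MYB34, a regulator of the pathway, fell (-1.70 ± 0.23). In tryptophan synthesis 5 of 8 rose and 0 fell, with TSB1 at 2.72 ± 0.08 and ASA1, which feeds the pathway, at 1.38 ± 0.09.

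Other branches fell. None of 15 aliphatic glucosinolate synthesis genes rose and 12 fell (median -1.55). Their regulator MYB29 gave 5.48, 5.07 and 5.65 CPM at 0 h and 1.44, 0.767 and 0.773 CPM at 1 h, a change of -2.45 ± 0.21, and CYP83A1 and SOT18 changed by -1.27 ± 0.11 and -1.67 ± 0.13. None of 13 flavonoid synthesis genes rose and 11 fell (median -1.63). TT4, the chalcone synthase gene that opens the pathway, gave 187, 230 and 160 CPM at 0 h and 66.8, 55.3 and 55.7 CPM at 1 h, a change of -1.70 ± 0.15, and the flavonol synthase gene FLS1 gave 37.1, 38.2 and 33.9 CPM at 0 h and 10.5, 9.41 and 9.03 CPM at 1 h, a change of -1.92 ± 0.15. The upstream phenylpropanoid and lignin precursor genes were mixed, with 8 rises and 4 falls among 17 (7 falls with upper-quartile scaling). CCR2, of monolignol synthesis, changed by 6.48 ± 0.20, PAL2 by 2.05 ± 0.08 and C4H by 1.30 ± 0.08, while 4CL3, whose product serves flavonoid synthesis, changed by -1.75 ± 0.16. CYP71B cytochrome P450 genes were split evenly, 11 up and 11 down of 24, with changes from -2.27 to 7.81. CYP71B5 (3.20 ± 0.08) was among those that rose and CYP71B36 (-2.16 ± 0.15) among those that fell. Of 28 tau class glutathione transferases 14 rose, GSTU12 by 8.64 ± 0.21, and 6 fell, GSTU16 by -1.40 ± 0.15. GSTT1, found under a tau class symbol and not called, is annotated as theta class.

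Secretion and cell wall defence rose in 8 of 9 genes. The exocyst gene EXO70B2 changed by 5.64 ± 0.14, the syntaxin genes SYP122 and SYP121 by 5.63 ± 0.18 and 4.26 ± 0.09, their partner SNAP33 by 3.90 ± 0.10 and the callose synthase gene GSL05 by 1.09 ± 0.10. CALS1, another callose synthase gene, was called lower (-0.27 ± 0.11) although its libraries overlapped, and lost the call with RLE scaling, DESeq2, no filter on low counts, only the groups compared and 4 of the 6 libraries left out in turn. In endoplasmic reticulum folding 1 of 12 rose, CRT3, a calreticulin needed by the receptor EFR (1.94 ± 0.08), and 5 fell, BIP1 among them (-0.48 ± 0.10), with 3 falls when only the groups compared were fitted or without replicate 2 at 1 h or 3 at 0 h. In cytosolic heat shock 0 of 8 rose and 4 fell (2 without replicate 1 at 0 h), HSP70 by 1.55 and HSFA2 by 1.57 on the log2 scale.

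In the growth lists more members fell than rose. Of 64 SAUR genes 45 fell and 9 rose, with a median of -1.51. AT3G60690 (2.33 ± 0.11) was among those that rose. The locus listed as SAUR21 at AT5G01830 also rose (5.19 ± 0.14), but its annotated product is an ARM repeat protein. Of 9 growth bHLH factors 8 fell and 0 rose. PIL5, a phytochrome-interacting factor, gave 18, 20.7 and 22.6 CPM at 0 h and 2.35, 2.92 and 1.46 CPM at 1 h, a change of -3.21 ± 0.21, and HBI1, a bHLH transcription factor known to trade growth against immunity, gave 22.7, 35.2 and 36.6 CPM at 0 h and 4.32, 4.14 and 4.55 CPM at 1 h, a change of -2.86 ± 0.16. Alpha-expansins, which loosen walls, had 10 falls and 3 rises among 18 (10 falls and 0 rises with upper-quartile scaling, and 1 rise without the untreated replicate 3), and EXPA1 gave 279, 352 and 221 CPM at 0 h and 29.8, 32.6 and 28.1 CPM at 1 h, a change of -3.24 ± 0.15. Xyloglucan endotransglucosylases were mixed, with 10 rises, XTH18 by 4.86 ± 0.13, and 15 falls, XTH31 by -2.09 ± 0.13, among 30. In the cell cycle list 5 of 11 fell and 0 rose, PCNA1 by -0.81 ± 0.11. Summed levels rose in the xyloglucan list, from 1838 to 1985 CPM at 0 h to 3928 to 4837 CPM at 1 h. Those of the SAUR list, AT5G01830 included, were 289.4 to 394.7 and 383.8 to 405.2 CPM. They fell for expansins (497.1 to 690.1, then 216.4 to 235.1 CPM), growth bHLH factors (286.7 to 346.7, then 101.6 to 116 CPM) and the cell cycle (141 to 162.6, then 117.4 to 122.3 CPM).

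Light and clock genes moved in both directions. Of 27 B-box and CONSTANS-like factors 18 fell and 7 rose. COL2 gave 76.2, 84.9 and 68.8 CPM at 0 h and 3.12, 3.53 and 2.89 CPM at 1 h and BBX14 gave 118, 137 and 182 CPM at 0 h and 10.7, 11.8 and 10.6 CPM at 1 h (-3.73 ± 0.21), and BBX32 changed by 2.47 ± 0.22. Of 17 clock genes 6 rose and 7 fell. The morning gene LHY gave 192, 179 and 198 CPM at 0 h and 81.2, 87.6 and 76.4 CPM at 1 h (-1.22 ± 0.11) and the evening gene TOC1 gave 20.6, 20.7 and 24.5 CPM at 0 h and 114, 116 and 127 CPM at 1 h (2.44 ± 0.09). The hour between the 2 samplings and the new medium move with these values, and their part in the result was not tested. Nitrate uptake and assimilation had 2 rises and 7 falls among 11, with the nitrate reductase gene NIA2 at 0.61 ± 0.08 and the transporter gene NRT1.1 at -1.46 ± 0.12. All 4 tested touch and cold genes, of 6 listed, rose, among them TCH3 (3.93 ± 0.14) and TCH2 (1.60 ± 0.11), which respond to handling. Of the nuclear photosynthesis genes 0 of 25 rose and 8 fell (17 with upper-quartile scaling), RBCS1B by -0.93 ± 0.11. None of the 87 plastid-encoded genes was called (median 0.07), and 1 of 27 mitochondrion-encoded genes rose. The libraries were made from polyadenylated RNA, and the organelle shares varied between replicates. In untreated wrky18 the plastid share was 0.590%, 0.289% and 0.559% and the mitochondrial share 0.115%, 0.0996% and 0.0131%. The lack of calls therefore does not show that these transcripts were unchanged.

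Markers of tissues and the reference genes give the frame for these values. Of 11 root markers 2 rose and 4 fell (1 rose with upper-quartile scaling or without the untreated replicate 3, and 2 fell without replicate 2 at 1 h), and their summed level was 1948 to 2043 CPM at 0 h and 1841 to 1970 CPM at 1 h. Of 8 shoot and leaf markers 4 fell and 0 rose (7 fell with upper-quartile scaling), with summed levels of 31340 to 34140 and 26550 to 32950 CPM. Of the flower and seed markers, OLEO1 had 0 CPM in both groups and the summed level of the 8 was 0.449 to 1.075 CPM at 0 h and 2.543 to 2.814 CPM at 1 h. That sum was mostly PI, a floral homeotic gene, which gave 0.322, 0.501 and 0.264 CPM at 0 h and 2.16, 2.35 and 1.99 CPM at 1 h and rose by 2.56 ± 0.35. Among 10 genes often used as references 7 rose and 1 fell (3 and 2 with upper-quartile scaling). UBQ10 had 1640, 1720 and 1260 CPM at 0 h and 3650, 3470 and 3290 CPM at 1 h, a change of 1.17 ± 0.12, UBC9 changed by 1.02 ± 0.10 and ACT2 by 0.33 ± 0.06, and AT2G28390 was not called (0.02 ± 0.07).

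The study's design sets this response beside that of the other genotypes. Against WT, the difference in response was tested for each gene as wrky18 minus WT. No gene was called (0% of 21356), and the lowest adjusted p was 0.854 in the edgeR quasi-likelihood test. At an unadjusted p below 0.05 stood 612 genes (2.87%) in edgeR and 586 in DESeq2, which also called 0. The median SE of a difference was 0.18. A count of 0 here does not show that the responses were alike. WRKY18 itself had a difference of -0.92 ± 0.21 (unadjusted p = 0.00011, adjusted p = 0.854), the change in wrky18 being 1.46 ± 0.15 and in WT 2.38 ± 0.15. In WT 12989 genes (60.8%) were called. Of the 12880 genes called in wrky18, 11520 were called in WT in the same direction, which is 89.4% of the wrky18 calls and 88.7% of the WT calls, and 1 in the opposite direction. Across genes, which are not independent replicates, the changes had a Pearson r of 0.964 and a slope of 0.945 of wrky18 on WT.

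**Figure D4:**
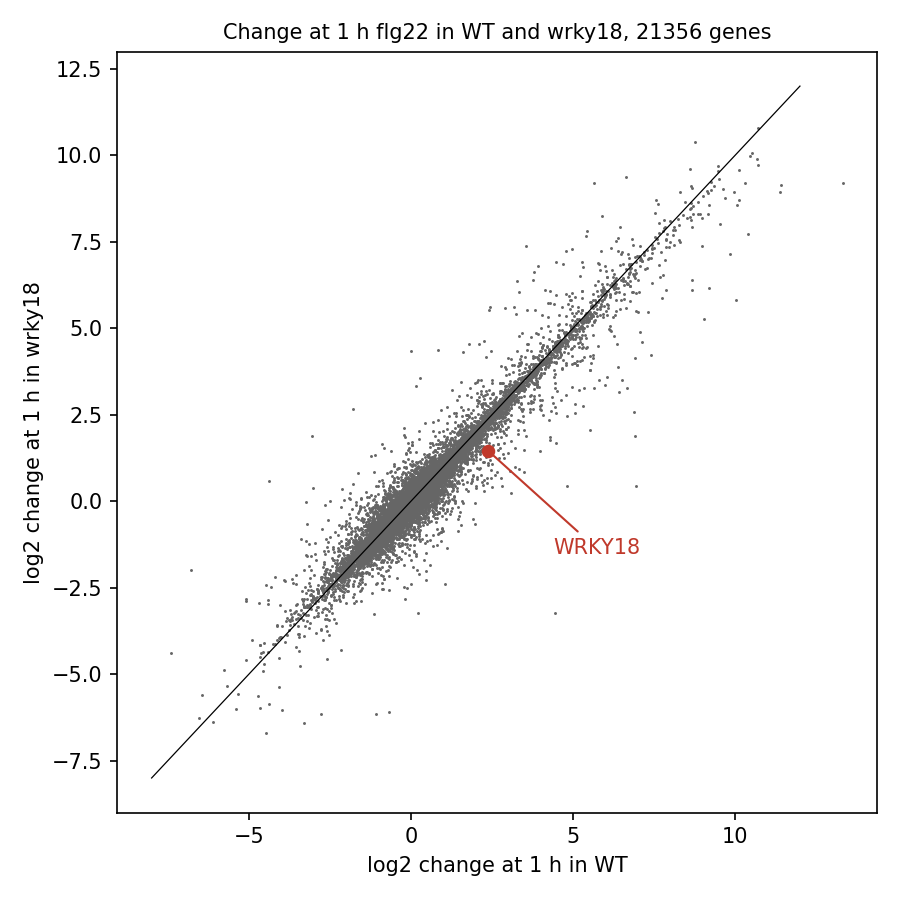
Log2 change at 1 h flg22 against untreated in WT (x axis) and in wrky18 (y axis) for the 21356 genes tested. The line marks equal change, and WRKY18 is shown in red at 2.38 in WT and 1.46 in wrky18. Points away from the line were not called as different from WT.

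The changes of some named genes are given here for both genotypes, none of them called as different. The change of PROPEP3 was 9.04 ± 0.21 in wrky18 and 8.66 ± 0.21 in WT, that of BIR1 4.38 ± 0.08 and 4.41 ± 0.08, that of MPK3 3.59 ± 0.11 and 3.59 ± 0.11 and that of FLS2 2.40 ± 0.08 and 2.72 ± 0.08. The SAUR gene AT4G38860 changed by -6.38 ± 0.42 and -6.10 ± 0.40. Some list medians stood further apart, with no member of any list called as different. The heat shock list had a median of -0.76 in wrky18 and -1.58 in WT. The tau class glutathione transferases had 0.73 and 0.15, and jasmonate signalling 0.41 and -0.05. These lists are named for the gap between their medians, which is not the median of the differences gene by gene. That median, as wrky18 minus WT, was 0.707 for heat shock, 0.229 for the transferases and 0.12 for jasmonate signalling. Summed levels of the heat shock list ran from 218.6 to 432.4 CPM across the untreated wrky18 libraries.

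Against the wrky40 mutant, 18 genes had a different response (0.0843% of those tested), 5 with a higher change in wrky18 (0.0234%) and 13 with a lower one (0.0609%). With the replicate number as a block the count was 41, 11 higher and 30 lower, and without 1 library in turn it ran from 3 to 57. WRKY18 led them by adjusted p with a difference of -1.75 ± 0.21. Its libraries in wrky40 gave 43.5, 28.8 and 28.3 CPM at 0 h and 318, 315 and 304 CPM at 1 h, all above the wrky18 libraries of the same time. This contrast holds the mutated locus itself. ZAT7, a zinc finger gene, gave 6.63, 6.58 and 7.34 CPM at 0 h and 33.8, 37.4 and 25.8 CPM at 1 h in wrky18 and 13.1, 9.78 and 10.9 CPM at 0 h and 22.6, 15.7 and 11.3 CPM at 1 h in wrky40. Its 1 h libraries in wrky18 all lay above those in wrky40, its untreated ones all below, and the difference in response was 1.68 ± 0.27 (adjusted p = 0.00575). ZAT6 also responded more in wrky18 than in wrky40 (1.05 ± 0.21). Such a difference does not show which of the 2 mutants departed from WT, and no gene of wrky18 was called against WT. The P450 genes CYP71B23 (-0.88 ± 0.14) and CYP71B24 (-0.91 ± 0.17), close paralogs that may share reads, and the amino acid transporter gene LHT1 (-0.66 ± 0.13) responded less in wrky18. With only the groups compared in the fit, WRKY18 and CYP71B24 were the 2 genes called, and the edgeR adjusted p was 0.184 for ZAT7, 0.544 for ZAT6, 0.184 for CYP71B23 and 0.406 for LHT1. Leaving out 1 of the 12 libraries ended the call of ZAT6 in 9 fits, of LHT1 in 7 and of CYP71B24 in 6, and that of WRKY18, ZAT7 and CYP71B23 in 0.

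Against the double mutant 146 genes had a different response (0.684%), 73 higher and 73 lower in wrky18 (0.342% each way). The replicate block gave 283, 138 higher and 145 lower, and leaving out 1 library in turn gave 59 to 289. CYP71B24 gave 25.1, 23.2 and 28.2 CPM at 0 h and 43.6, 45.1 and 46.2 CPM at 1 h in wrky18 and 32.7, 29.3 and 26 CPM at 0 h and 127, 128 and 124 CPM at 1 h in the double mutant. The difference in response was -1.29 ± 0.17 (adjusted p = 0.000309), with the changes at 0.82 ± 0.12 in wrky18, 0.57 ± 0.12 in WT, 1.72 ± 0.12 in wrky40 and 2.11 ± 0.12 in the double mutant. HMT-1, a homocysteine methyltransferase gene (-0.71 ± 0.12), AO, the L-aspartate oxidase of NAD synthesis (-0.96 ± 0.15), the receptor kinase gene AT1G11300 (-0.90 ± 0.14), CPK7 (-0.60 ± 0.10) and WRKY29 (-0.66 ± 0.13) also responded less in wrky18. On the other side, PHI-1, of the EXORDIUM family of growth genes, gave 17.6, 18.1 and 34.5 CPM at 0 h and 195, 190 and 150 CPM at 1 h in wrky18 and 43.2, 55 and 71.6 CPM at 0 h and 102, 91.5 and 110 CPM at 1 h in the double mutant. Its untreated libraries in the double mutant were all above those in wrky18 and its 1 h libraries all below, a difference of 2.08 ± 0.35. ZAT7 (1.94 ± 0.27), the touch gene TCH4 (1.60 ± 0.34), the PHI-1 relatives EXO (1.50 ± 0.24) and EXL5 (1.08 ± 0.19), the tetraspanin gene TET8 (1.16 ± 0.21), MPK3 (0.66 ± 0.14) and CBP60G (0.80 ± 0.20) had a higher change in wrky18 too. With only the groups compared, TCH4 and MPK3 were not called (edgeR adjusted p = 0.0613 and 0.0597). Leaving out 1 of the 12 libraries ended the call of CBP60G in 11 fits, of TCH4 in 5, of MPK3 in 4 and of WRKY29 in 1. Here too, the difference alone does not show which mutant departed from WT. The 3 differences share the same 6 wrky18 libraries, so a gene called in more than 1 of them is not a repeated observation.

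**Figure D5:**
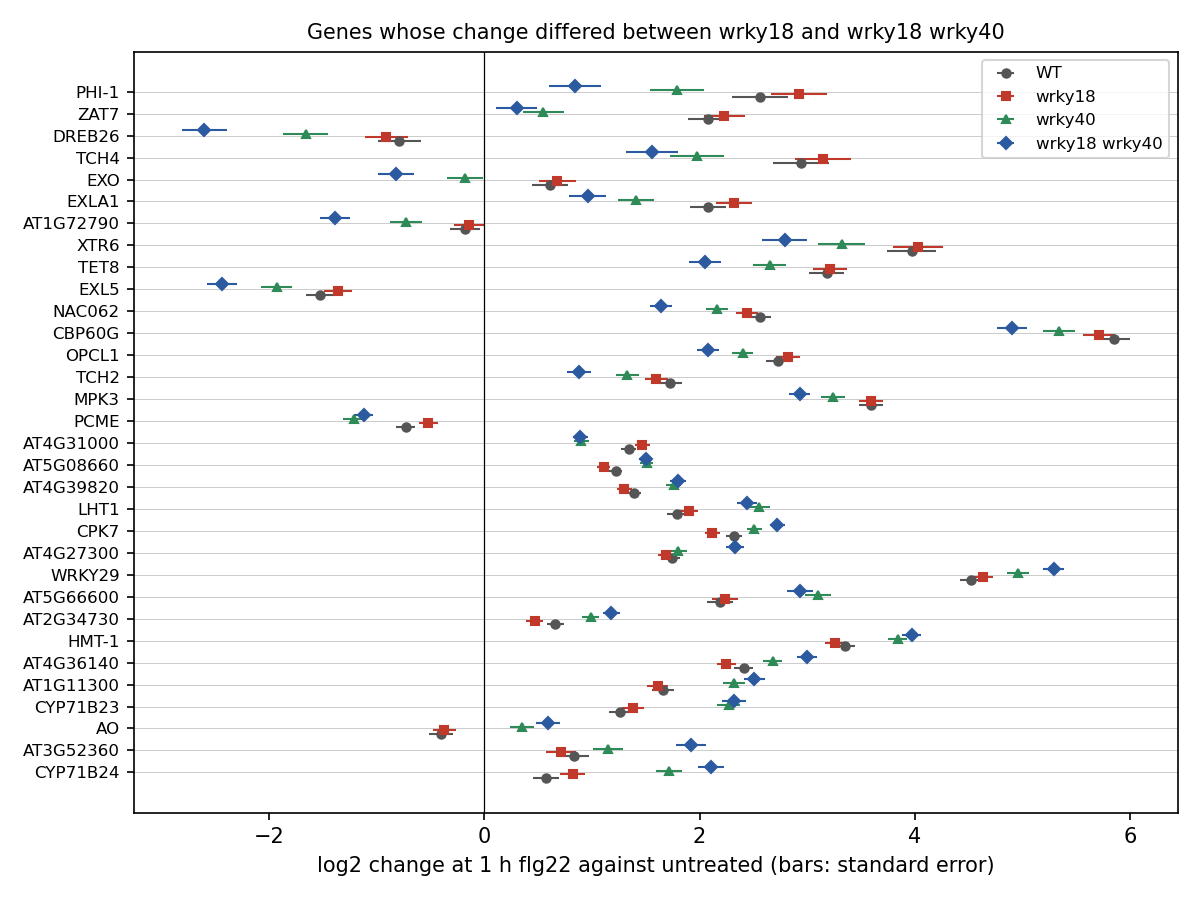
Log2 change at 1 h flg22 against untreated, with SE, in WT (circles), wrky18 (squares), wrky40 (triangles) and the double mutant (diamonds) for the 32 named genes whose response differed between wrky18 and the double mutant. Genes run from the lowest difference at the bottom, CYP71B24 (-1.29), to the highest at the top, PHI-1 (2.08).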

How the data were processed

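Polyadenylated RNA of Arabidopsis seedlings was sequenced from stranded TruSeq libraries, per the labels' protocols. The authors used FastQC 0.11.2, TopHat2 2.0.10, HTSeq and the TAIR10 build, per the submitters' processing notes. The HTSeq version and the strand setting of the counting are not given in the sources used here. The deposited table holds raw counts per gene and library, whole numbers with no normalization, for 32678 genes, of which 26523 had a count.

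All 36 libraries were fitted in edgeR 4.0.16 (R 4.3.3, limma 3.58.1) with a mean for each of the 12 groups, TMM scaling, filterByExpr, glmQLFit and glmQLFTest. The common biological coefficient of variation was 10.71% with 24 residual degrees of freedom. Each of 4 comparisons had its two-sided p-values adjusted over the 21356 genes tested (Benjamini-Hochberg). The SE was taken as the absolute log2 change over the root of its F statistic. Intervals and floors (3 counts over a group, 95% confidence) cover counting error only. Total counts were 20828914 to 32720687 in the wrky18 libraries and 17287229 to 38709715 in all. Replicates of a wrky18 group differed well beyond sampling noise, with a chi-square per degree of freedom of 9.22 to 32.4. Alternatives were RLE and upper-quartile scaling, no filter on low counts, DESeq2 1.42.0, only the groups compared, the replicate number as a block, and each library left out.

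The design text describes 3 replicates of 12 samples each, so a number marks a shared set. Deviations from the group means in wrky18 at 0 h and 1 h had r = 0.22, 0.079 and 0.43 for the same number and -0.34 to 0.17 for other numbers. Over all groups the median r was 0.25 in 198 same-number pairs and -0.13 in 396 others.

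The comparison, the 48 lists (30 written by hand and 18 families found by symbol, 986 loci, 894 tested) and the tests were chosen with earlier results of these data known. Symbols, products, coordinates and promoters came from RefSeq's TAIR10.1, which had 31912 of the genes in the table. A gene whose symbol is not there is given by locus. Where a hand-listed locus did not carry its symbol, the single locus found by that symbol was used. IPMDH1 was so counted at AT1G31180 and not at AT5G14200 in the aliphatic glucosinolate list. CCOAMT was counted at AT1G67980 and not at AT4G34050 in the phenylpropanoid list. The counts of these lists therefore lack the loci first listed. Named genes are WRKY18, WRKY40, WRKY60 and the neighbours of WRKY18, and, of called genes that average 1 log2 CPM or more and whose libraries do not overlap, the 10 that rose most and the 10 that fell most. Added were the 5 smallest adjusted p in each direction, the 4 leading members each way of a list by adjusted p, up to 4 called against a list's direction, and all members of lists of at most 12. For differences, all called genes were named if under 20, otherwise the 10 smallest adjusted p each way. FLS2, ACS8, AT2G46700, NPH4, ARF19, MP and GSTT1 lie outside this rule and were chosen after their values were seen. Of 404 named genes 18 overlap another gene by at least 500 bp. TCH2 overlaps AT5G37760 by 723 bp and AT4G27300 overlaps AT4G27290 by 527 bp, both on the other strand, and the overlaps of other genes printed stand beside them in the report.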

Additional observations from a re-analysis of the deposited data

Results flagged for a closer look

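The response to flg22 differed between wrky18 and wrky40 by the edgeR test of the difference itself for 18 genes, all of which are given here as the log2 change in wrky18 minus that in wrky40. The change was lower in wrky18 for AT4G39361 (-2.47), WRKY18 (-1.75), AT1G04770 (-1.31), AT5G48430 (-1.02), CYP71B24 (-0.91), CYP71B23 (-0.88) and AT5G66600 (-0.86). Further genes on this side were AO (-0.72), AT1G11300 (-0.71), LHT1 (-0.66), HMT-1 (-0.58), AT4G39820 (-0.47) and AT5G08660 (-0.40). The change was higher in wrky18 for ZAT7 (1.68), ZAT6 (1.05), AT2G36220 (0.75), PCME (0.69) and AT4G31000 (0.57). AT1G04770, a tetratricopeptide repeat protein, changed by -1.27 in wrky18, 0.04 in wrky40 and -1.30 in wrky18 wrky40. AT4G39361, with no product in the annotation, had mean levels of at most 1.43 CPM in these groups. Its call was lost with upper-quartile scaling, DESeq2, only the groups compared and 11 of the 12 fits without 1 library. Such fits also ended the calls of AT5G08660 (11), HMT-1 and AT4G39820 (10 each), PCME, AT5G48430 and AT2G36220 (9 each). The same held for AT5G66600, AT1G11300 and AO (8 each), AT1G04770 (7) and AT4G31000 (4). RLE or upper-quartile scaling ended those of AT5G08660, HMT-1, AT4G39820 and AO.

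Between wrky18 and the double mutant 32 of the named genes had a different response by the same kind of test, again given as wrky18 minus the other genotype. The change was lower in wrky18 for CYP71B24 (-1.29), AT3G52360 (-1.20), AO (-0.96), CYP71B23 (-0.94), AT1G11300 (-0.90), AT4G36140 (-0.75), HMT-1 (-0.71) and AT2G34730 (-0.71). Further genes on this side were AT5G66600 (-0.69), WRKY29 (-0.66), AT4G27300 (-0.64), CPK7 (-0.60), LHT1 (-0.54), AT4G39820 (-0.50) and AT5G08660 (-0.39). The change was higher in wrky18 for PHI-1 (2.08), ZAT7 (1.94), DREB26 (1.68), TCH4 (1.60), EXO (1.50), EXLA1 (1.36), AT1G72790 (1.25), XTR6 (1.24) and TET8 (1.16). The others on that side were EXL5 (1.08), NAC062 (0.81), CBP60G (0.80), OPCL1 (0.74), TCH2 (0.72), MPK3 (0.66), PCME (0.60) and AT4G31000 (0.58). Leaving out 1 of the 12 libraries ended the call of AT5G66600 in 10 fits, of XTR6 in 9, of LHT1 in 8, of TCH2 in 4, of PCME in 3 and of AT5G08660 in 1. With only the groups compared, AT5G66600, LHT1, TCH2, PCME, AT5G08660, AT4G39820 and AT4G27300 were not called. Upper-quartile scaling ended the calls of AT5G66600 and LHT1. That of AT5G66600 was also lost with RLE scaling and with no filter on low counts. Genes in both groups of differences were compared with the same 6 wrky18 libraries. AO had changes of -0.37 in wrky18, -0.40 in WT, 0.35 in wrky40 and 0.59 in wrky18 wrky40. Those of EXO were 0.68 in wrky18, 0.61 in WT, -0.18 in wrky40 and -0.82 in wrky18 wrky40.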

How the results depend on the processing

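For 1 h against 0 h in wrky18, the counts called, higher and lower stayed within 1.5 times of 12880, 6045 and 6835 under every alternative run, and leaving out 1 library gave 11999 to 12696 called, 5759 to 6115 higher and 5898 to 6688 lower. The difference from WT stayed at 0 called, 0 higher and 0 lower under every alternative run. The other differences moved. Against wrky40 the 18 called, 5 higher and 13 lower became 41, 11 and 30 with the replicate block, 2, 0 and 2 with only the groups compared and 80, 38 and 42 with DESeq2, and 8 were lower with upper-quartile scaling. Leaving out 1 library gave 3 to 57 called, 1 to 35 higher and 2 to 23 lower. The count called passed 1.5 times without wrky40 replicate 1 at 1 h (57) or at 0 h (32), and fell below 12 without wrky18 replicate 1 (3) or 2 (8) at 1 h, wrky18 replicate 2 at 0 h (7), and wrky40 replicates 2 and 3 at 0 h (7 and 5) and at 1 h (6 and 4). Against the double mutant the 146 called, 73 higher and 73 lower became 283, 138 and 145 with the block, 330, 171 and 159 with DESeq2, and 73 called and 23 lower with only the groups compared. Leaving out 1 library gave 59 to 289 called, 33 to 186 higher and 24 to 103 lower. It was 289 without wrky18 replicate 3 at 0 h, 67 without replicate 2 at 0 h, and 68 and 87 without replicates 1 and 2 at 1 h. It was 59 and 85 without double mutant replicates 1 and 2 at 1 h, and 83 and 88 without its replicates 2 and 3 at 0 h. The cause was not tested. Fits of only the groups compared have fewer libraries behind the spread. Within the comparison of 1 h with 0 h in wrky18, the replicate block changed the calls of 4 named genes and of no other named gene. CPK19 was lost and CYCB1;1, NLP7 and RBCS1A were gained. With upper-quartile scaling 3 reference genes changed sign, to -0.00 for AT4G34270, -0.03 for PP2AA3 and -0.17 for AT2G28390. Depth limits genes near silence: 1 to 3 counts in a group leave intervals as wide as that of AT4G04480.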

Other observations

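Levels of the same mutant at 2 h, outside the comparison of 1 h with 0 h, are given as means with no test. Several of the genes with the largest rises had moved back by then. AT4G04480, at 40.9 to 47.0 CPM at 1 h, had a mean of 1.40 CPM at 2 h, AT4G22030 went from 53.4 to 56.0 CPM at 1 h to 4.86 CPM, and AT3G12910 from 155 to 197 CPM to 14.0 CPM. Others were higher at 2 h than in any 1 h library, as AT1G26380 with 1670 CPM, MLO12 with 1460 CPM and WRKY29 with 348 CPM. Among the genes that fell, WRKY60 stood at 30.6 CPM at 2 h, within the range of its untreated libraries, whereas COL2 stood at 1.55 CPM, below its 1 h libraries. The abscisic acid phosphatase gene ABI2 fell at 1 h and stood at 15.0 CPM at 2 h, above all its untreated libraries, which ran from 5.60 to 8.13 CPM.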
